A study of Mus musculus with 6 samples.

Results

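The genes described here encode the proteasome, the protease complex that degrades ubiquitin-tagged proteins, together with its activators, inhibitor and assembly factors. They are the 51 protein-coding rows, among 19112 protein-coding rows and 35618 rows in all, whose symbol starts with Psma, Psmb, Psmc, Psmd, Psme, Psmf or Psmg followed by a digit. RNA was sequenced from hearts of Gsdmd myocardial-specific knockout mice (GSDMD-CKO, 3 libraries) and of floxed mice that keep the gene (GSDMD-FLOX/FLOX, 3 libraries). Gsdmd encodes gasdermin D, which forms membrane pores in pyroptosis. All mice were 6 to 8 weeks old and had received 20 mg/kg doxorubicin, an anthracycline that is toxic to the heart, by intraperitoneal injection, and the tissue was taken on day 3. Both groups were treated, so no value here is an effect of doxorubicin, and hearts without the drug were not analysed here. The sources used here do not give the Cre driver, and the tissue holds other cells beside cardiomyocytes.

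The 20S core of the proteasome is a barrel of alpha rings and beta rings, and its proteolytic sites lie on the beta subunits Psmb5, Psmb6 and Psmb7. In haematopoietic cells, and in other cells exposed to interferon gamma, Psmb8, Psmb9 and Psmb10 are made and take the places of Psmb5, Psmb6 and Psmb7, which gives the immunoproteasome. That form is known for producing peptides for major histocompatibility complex (MHC) class I molecules. The 19S cap recognises, unfolds and threads substrates, whereas PA28 (Psme1 and Psme2), also induced by interferon gamma, opens the core without a need for ubiquitin.

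The proximal promoters of 5 of these genes are printed because the results turn on the induced and the constitutive subunits. Each run below is the RefSeq window of GRCm38.p6 from 250 bases before to 50 bases after the start site, written 5′ to 3′ in the direction of the gene. Capitals mark a match to TTCNNNGAA (the gamma activated site) in Psmb8, to TTTCNN followed by TTTC (an interferon stimulated response element core) in Psme1, and to TGACNNNGC (an antioxidant response element core, used by Nfe2l1) in Psmb5 and Psmb6. Psmb9 holds none of these 3 motifs in this window. The match in Psme1 lies 9 bases after the start site. Psmb7, Psmb10 and Psme2 are not printed, and none of them is among the genes with a match to these 3 motifs.
Psmb8, chr17:34197945-34198244, plus strand: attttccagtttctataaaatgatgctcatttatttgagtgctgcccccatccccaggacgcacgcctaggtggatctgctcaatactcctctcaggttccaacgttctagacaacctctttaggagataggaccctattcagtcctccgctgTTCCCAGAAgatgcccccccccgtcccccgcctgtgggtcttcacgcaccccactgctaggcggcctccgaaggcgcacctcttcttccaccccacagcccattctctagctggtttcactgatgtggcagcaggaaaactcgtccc
Psmb9, chr17:34187281-34187580, minus strand: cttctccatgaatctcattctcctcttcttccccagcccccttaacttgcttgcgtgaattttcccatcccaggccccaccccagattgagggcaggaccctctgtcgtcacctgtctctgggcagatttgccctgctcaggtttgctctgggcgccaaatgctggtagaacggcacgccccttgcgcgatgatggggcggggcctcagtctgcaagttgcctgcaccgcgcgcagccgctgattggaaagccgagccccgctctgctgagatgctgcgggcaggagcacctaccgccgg
Psme1, chr14:55578244-55578543, plus strand: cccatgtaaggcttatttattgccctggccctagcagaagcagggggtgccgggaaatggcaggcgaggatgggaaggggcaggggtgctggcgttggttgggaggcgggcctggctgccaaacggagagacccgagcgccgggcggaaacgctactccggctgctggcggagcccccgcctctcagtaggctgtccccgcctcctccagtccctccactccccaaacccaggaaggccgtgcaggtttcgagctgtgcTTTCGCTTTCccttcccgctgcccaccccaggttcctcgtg
Psmb5, chr14:54617946-54618245, minus strand: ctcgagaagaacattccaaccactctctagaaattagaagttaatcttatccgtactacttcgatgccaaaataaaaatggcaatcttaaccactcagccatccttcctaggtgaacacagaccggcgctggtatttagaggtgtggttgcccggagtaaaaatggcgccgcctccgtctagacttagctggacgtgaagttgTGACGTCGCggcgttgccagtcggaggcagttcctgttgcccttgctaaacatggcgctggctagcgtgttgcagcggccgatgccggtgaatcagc
Psmb6, chr11:70525107-70525406, plus strand: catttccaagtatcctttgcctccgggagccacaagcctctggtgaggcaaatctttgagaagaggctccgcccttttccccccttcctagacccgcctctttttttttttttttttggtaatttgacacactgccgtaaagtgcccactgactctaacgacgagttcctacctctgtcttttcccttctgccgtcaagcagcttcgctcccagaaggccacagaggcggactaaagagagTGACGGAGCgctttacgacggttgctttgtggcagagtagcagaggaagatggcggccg
Windows were found for 43 of the 51 genes (47 windows), and both strands were searched. TTCNNNGAA, a palindromic motif, was present in 6.38% of the proteasome windows (Psmb8, Psmd2 and Psmg1) and in 8.30% of all 32851 windows. TTTCNN followed by TTTC was present in 10.6% of them (Psmb3, Psmd4, Psmd9, Psme1 and Psmg4), against 3.44% of all windows. TGACNNNGC was present in 12.8% (Psmb5, Psmb6, Psmc6, Psmd9, Psmd12 and Psme4), against 12.4% of all windows. The CCAAT box, bound by NF-Y, was present in 34.0%, against 37.4%. The window of Psmb9 shares 275 bases with that of Tap1, the peptide transporter gene on the opposite strand, and the start sites lie 226 bases apart. A match is a description of the letters and not evidence of binding.

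The libraries held 17279147 to 18875902 counts. Gsdmd had 1220, 2608 and 2228 counts in knockout hearts, against 129118, 137849 and 144568 in floxed hearts, and it fell by 6.13 ± 0.37 on the log2 scale (SE, edgeR adjusted p = 0.0104). Knockout library 1 stood apart from the other knockout libraries. Across tested genes its log2 CPM correlated at r = 0.978 with floxed library 2, and at 0.943 and 0.911 with knockout libraries 2 and 3 (genes are not independent replicates, so this is a description). Mitochondrially encoded genes took 18.1%, 10.2% and 5.48% of counts in the knockout libraries, against 8.45%, 11.2% and 6.70% in the floxed libraries. Beside the results it moves most, values without this library are given. Ranges with each library left out in turn, which include moves the other way, are given at the end.

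No proteasome gene differed between knockout and floxed hearts at an adjusted p under 0.05. Of the 51 genes, 50 had enough counts to be tested, beside 16591 genes in all. The edgeR quasi-likelihood test called 0 of the 50 members and 2 of all genes (0.0121%), and the smallest adjusted p of a member was 0.607, that of Psmb9. DESeq2, which called 1.46% of all tested genes, and limma-voom called 0 members too. At an unadjusted edgeR p under 0.05 there were 3 members, against 7.02% of all tested genes. They were Psmb8 and Psmb9 on the higher side (4.37% of all tested genes) and Psmd8 on the lower side (2.65%). The log2 fold change was positive for 20 members and negative for 30, with a median of -0.07, against 0.03 over all tested genes, of which 46.2% were negative. In 2 members (Psmb9 and Psma3) every knockout library lay above every floxed library, against 5.82% of all tested genes. In 6 members (Psmb5, Psmc6, Psmd2, Psmd8, Psmd11 and Psmd12) every knockout library lay below every floxed library, against 5.98% of all tested genes. Together these were 8 of 50 members, against 11.8% of all tested genes.

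**Figure D1:**
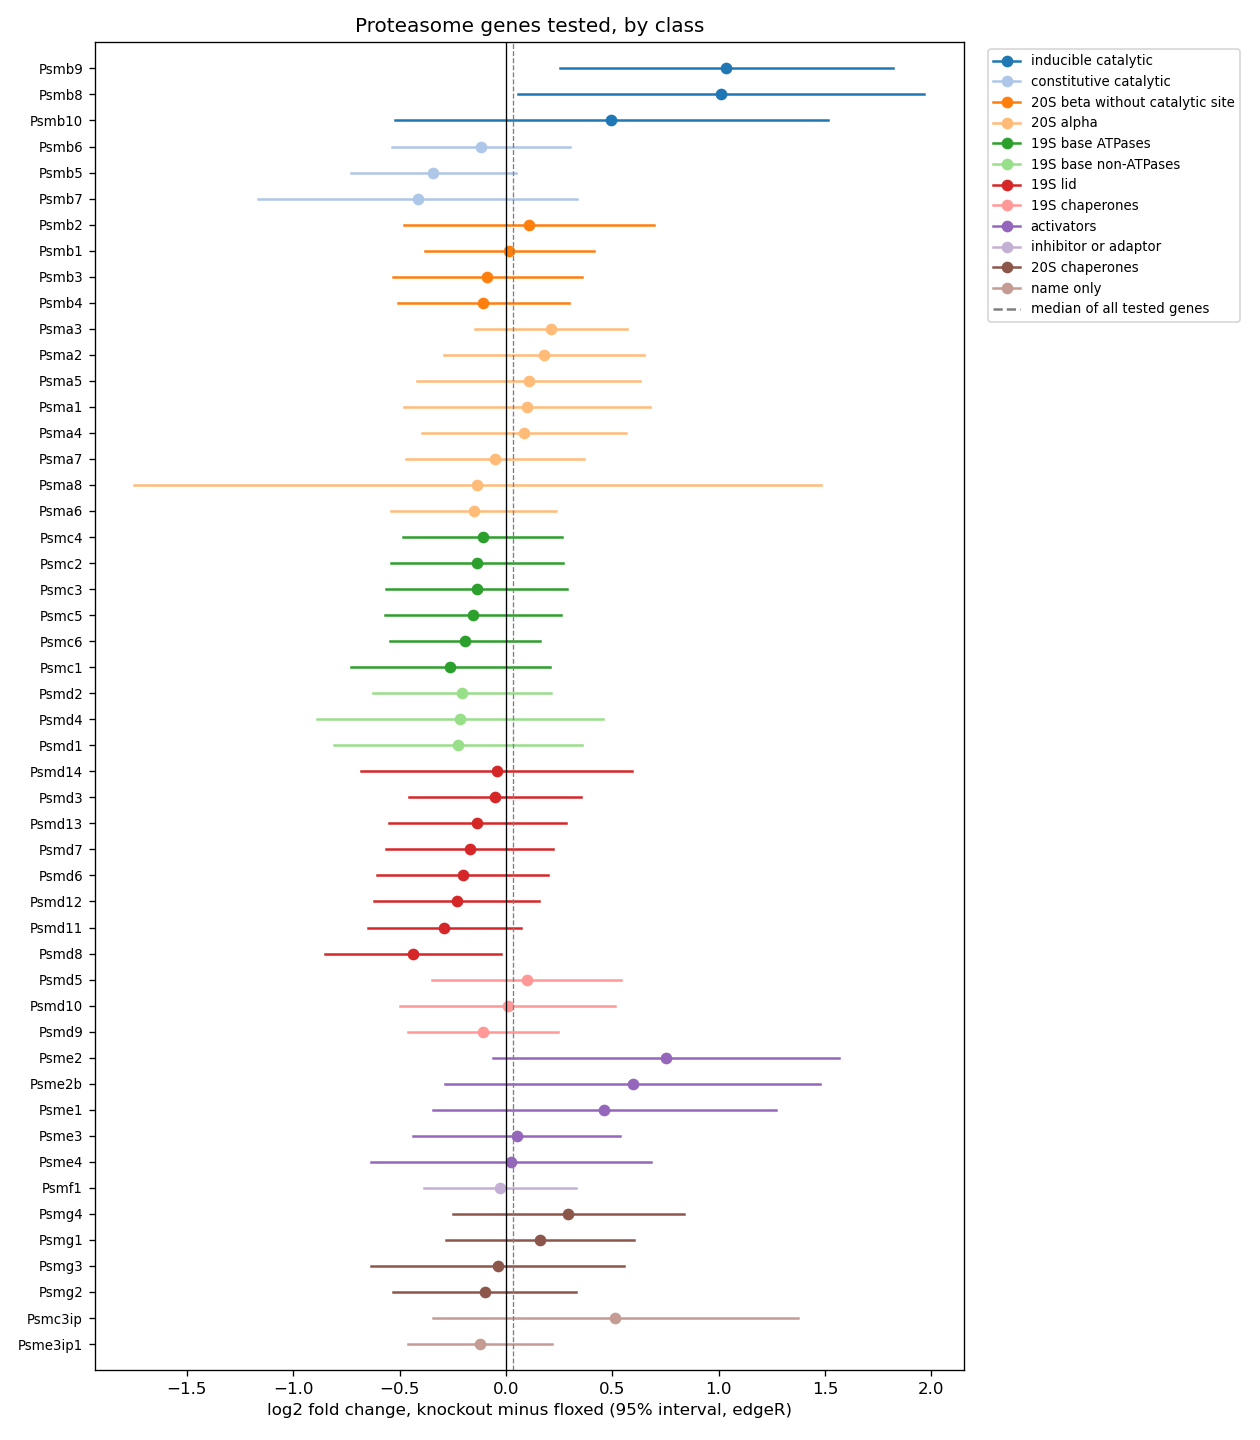
Log2 fold change of each tested proteasome gene, knockout minus floxed, with its 95% interval from edgeR (n = 3 libraries per group), coloured by class; the dashed line is the median of all tested genes. The inducible catalytic subunits and the PA28 genes lie to the right, with wide intervals. All subunits of the 19S cap shown lie left of 0, with intervals that span it except that of Psmd8.

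The inducible catalytic subunits Psmb8, Psmb9 and Psmb10 had higher means in knockout hearts (median log2 fold change 1.01), and the range of their CPM within the knockout group exceeded the difference between the group means. Psmb8 encodes the inducible form of the chymotrypsin-like site. It measured 207.7, 636.7 and 376.7 CPM (counts scaled to a common library size by TMM) in knockout hearts, against 203.2, 167.4 and 235.3 CPM in floxed hearts. Knockout libraries 2 and 3 were above all floxed libraries, and library 1 was within their range. Its means were 407 ± 216 CPM in knockout and 201.9 ± 34.0 CPM in floxed hearts (SD, n = 3 each), a log2 fold change of 1.01 ± 0.40 (SE, 95% interval 0.06 to 1.97, edgeR adjusted p = 0.682).

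Psmb9, whose product replaces that of Psmb6, lies in the MHC region on chromosome 17, at 34400961 to 34406738 on the minus strand in the deposited table. It measured 128.1, 317.1 and 227.6 CPM in knockout hearts, against 111.8, 97.0 and 119.3 CPM in floxed hearts. The groups did not overlap, although knockout library 1 exceeded the highest floxed library only narrowly. The log2 fold change was 1.04 ± 0.33 (SE, 95% interval 0.25 to 1.82, edgeR adjusted p = 0.607). In that table Psmb9 overlaps Tap1 on the opposite strand by 212 bases, and Tap1 had 41581 counts over the 6 libraries against 18596 for Psmb9. The sources used here do not say how reads were assigned by strand, so part of either count could belong to the other gene.

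Psmb10 encodes the inducible trypsin-like subunit. It measured 185.5, 582.7 and 378.6 CPM in knockout hearts, against 205.5, 250.5 and 357.5 CPM in floxed hearts. The groups overlapped, with knockout library 1 the lowest of all 6, and the log2 fold change was 0.50 ± 0.43 (SE, 95% interval -0.52 to 1.51, edgeR adjusted p = 0.896). Psmb11, the catalytic subunit of the thymoproteasome, which is made in the thymic cortex, had 0 counts in all knockout libraries, against 0, 2 and 0 in the floxed libraries. A count of 0 allows up to 3 counts, which is 0.15 to 0.19 CPM in these libraries, with counting error only taken into account.

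All 3 constitutive catalytic subunits had lower means in knockout hearts (median log2 fold change -0.34). Psmb5, the constitutive chymotrypsin-like subunit, measured 99.8, 106.1 and 120.8 CPM in knockout hearts, against 133.5, 138.1 and 142.4 CPM in floxed hearts. Every knockout value lay below every floxed value, with a log2 fold change of -0.34 ± 0.16 (SE, 95% interval -0.73 to 0.04, edgeR adjusted p = 0.757). Psmb6, the caspase-like subunit, measured 192.7, 189.5 and 160.4 CPM in knockout hearts, against 189.5, 190.3 and 209.6 CPM in floxed hearts, and the groups overlapped (log2 fold change -0.12 ± 0.18, SE). Psmb7, the trypsin-like subunit, measured 39.7, 46.0 and 91.5 CPM in knockout hearts, against 81.4, 76.7 and 78.3 CPM in floxed hearts. Its knockout libraries lay on both sides of the narrow floxed range (log2 fold change -0.42 ± 0.32, SE), and the difference was -0.88 without knockout library 3, -0.27 without library 2 and -0.21 without library 1. The Psmb7 row overlaps Nek6 on the opposite strand by 6571 bases.

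**Figure D2:**
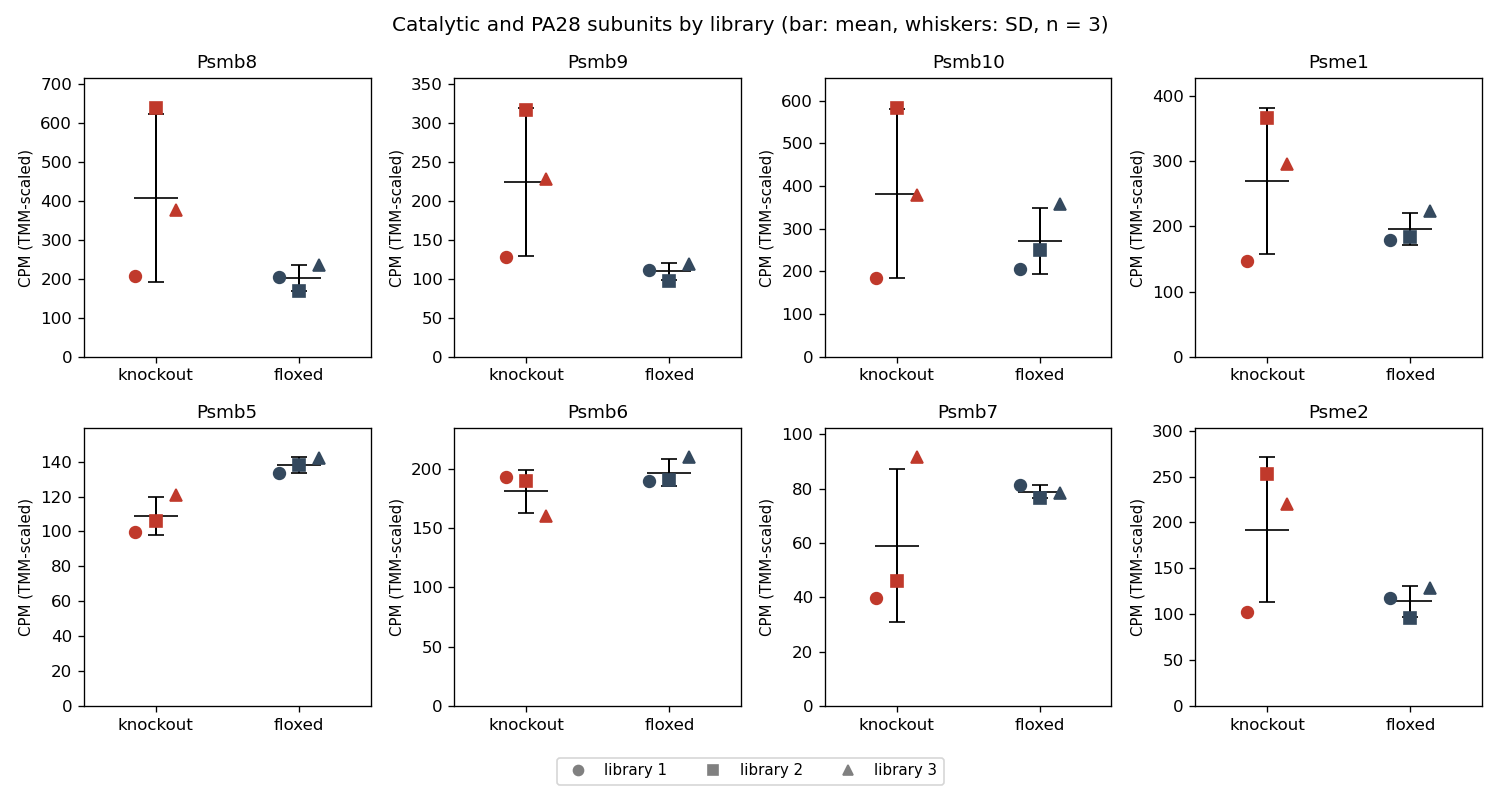
CPM (TMM-scaled) of the 3 inducible and 3 constitutive catalytic subunits and of Psme1 and Psme2 in each knockout (left) and floxed (right) library; bars are means and whiskers SD (n = 3), and marker shapes give the library number. Knockout library 1 lies near or within the floxed values for Psmb8, Psmb9, Psmb10, Psme1 and Psme2, whereas libraries 2 and 3 are above them, and all Psmb5 values of knockout libraries are lower than the floxed values.

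Each inducible subunit was then set against the subunit it replaces, on the deposited FPKM, a level per length. The ratio of Psmb8 to Psmb5 was 0.553, 1.595 and 0.829 in knockout hearts, against 0.405, 0.322 and 0.439 in floxed hearts. That of Psmb9 to Psmb6 was 0.340, 0.856 and 0.726 in knockout hearts, against 0.302, 0.261 and 0.291 in floxed hearts. Both ratios were higher in all knockout libraries than in any floxed library, by means of 1.225 and 1.07 on the log2 scale (1.58 and 1.47 without knockout library 1). Such a separation was seen in 5.82% of all tested genes, and no share over ratios was computed. In knockout library 1 the FPKM of Psmb8 (56.0) and Psmb9 (31.9) lay within the floxed ranges. Those of Psmb5 (101) and Psmb6 (93.9) lay below the floxed values, so the denominators set its ratios apart. The ratio of Psmb10 to Psmb7 was 9.37, 25.4 and 8.30 in knockout hearts, against 5.06, 6.55 and 9.16 in floxed hearts, and these groups overlapped.

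Summed over the catalytic subunits, the inducible ones made up 47.6%, 72.6% and 61.6% of FPKM in knockout hearts, against 43.6%, 44.5% and 51.5% in floxed hearts. Knockout library 1 lay within the floxed range and libraries 2 and 3 above it. The log2 ratio of the summed inducible to the summed constitutive FPKM averaged 0.65 ± 0.77 in knockout and -0.20 ± 0.25 in floxed hearts (SD, n = 3 each), a difference of 0.85, and of 1.24 without knockout library 1. With 3 libraries against 3 an exact permutation test cannot go below 0.1, so no p is given for these ratios.

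The size of such ratios between genes depends on the length used. The length behind the deposited FPKM was 1.00 to 3.36 times that of the principal transcript in GENCODE M21 (median 1.65 over 47 members). For Psmb8 it was 3381 bases against 1628, and for Psmb5 899 against 899. With principal lengths, an alternative chosen after seeing the data, the ratio of Psmb8 to Psmb5 was 1.15, 3.31 and 1.72 in knockout hearts, against 0.840, 0.669 and 0.913 in floxed hearts. The ratio of Psmb10 to Psmb7 then was 4.13, 11.2 and 3.66 in knockout hearts, against 2.23, 2.89 and 4.04 in floxed hearts. A fixed length cancels in the comparison between groups, so for a pair of genes only the level moved. For the summed ratio the difference between groups was 0.89 on principal lengths.

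**Figure D3:**
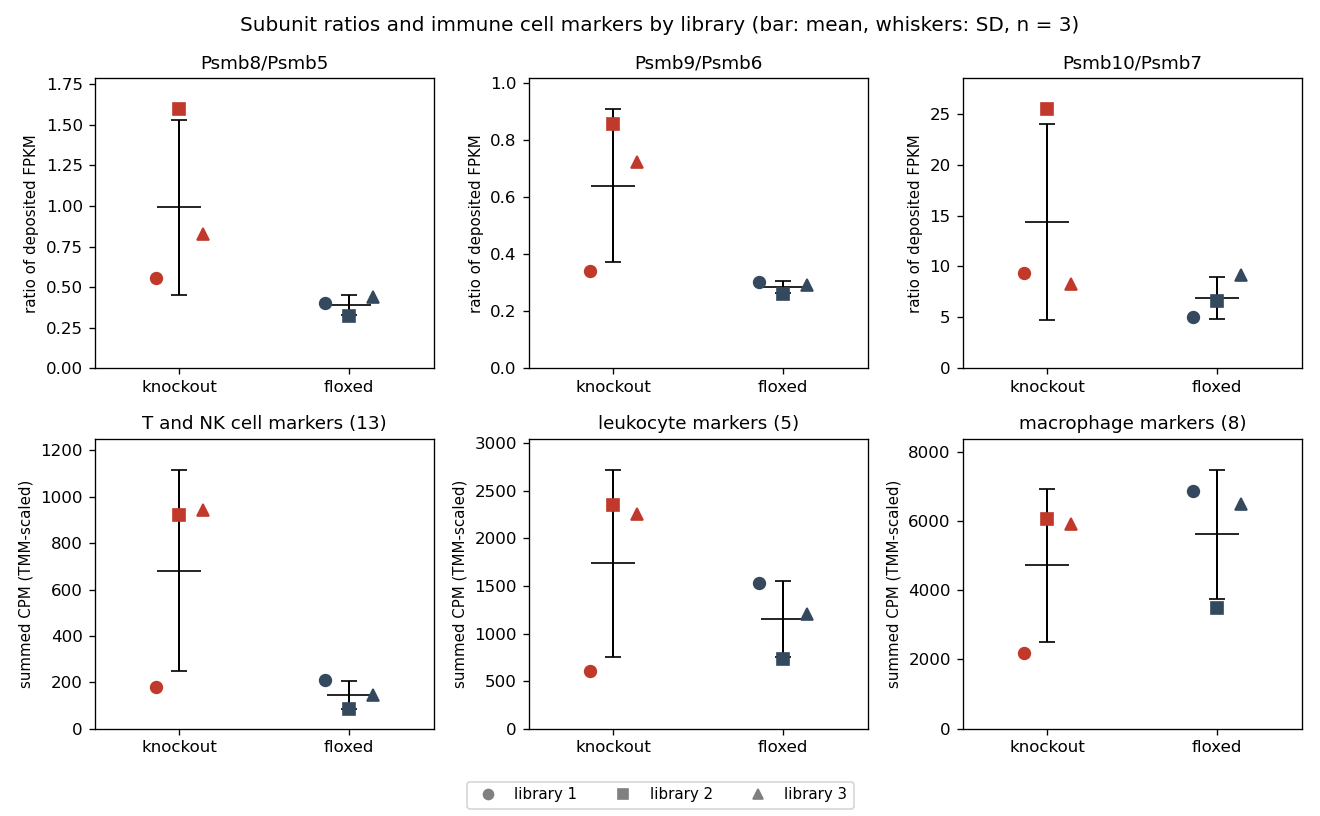
Upper row, ratio of deposited FPKM for each inducible subunit over its constitutive counterpart; lower row, summed CPM (TMM-scaled) of marker lists of T and NK cells, all leukocytes and macrophages, in each knockout (left) and floxed (right) library (bars mean, whiskers SD, n = 3). Knockout libraries 2 and 3 are far above the other 4 libraries for T and NK cell markers (923 and 942 CPM), and knockout library 1 (181 CPM) is within the floxed range.

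Knockout libraries 2 and 3 held the highest summed level of T and NK cell markers, as they did of Psmb8, Psmb9 and Psmb10. Library 2 was the higher of the pair for each of these genes, and library 3, by little, for the markers. The order of the other libraries differed as well. The 13 T and NK cell markers were all detected in all libraries, and their summed level was 181, 923 and 942 CPM in knockout hearts, against 209, 86.5 and 144 CPM in floxed hearts. None of the 13 passed the edgeR test, 11 had an unadjusted p under 0.05 (against 7.02% of all tested genes), and their median log2 fold change was 2.23. In 4 of the 13 every knockout library lay above every floxed library, against 5.82% of all tested genes. The groups overlapped for the rest, and widely for the 2 with a larger p. Cd4, of helper T cells, measured 1.71, 8.43 and 23.3 CPM in knockout hearts, against 9.61, 2.22 and 2.28 CPM in floxed hearts, and Ncr1, of NK cells, 0.825, 2.36 and 0.399 CPM in knockout hearts, against 1.299, 0.720 and 0.761 CPM in floxed hearts. The 5 leukocyte markers summed to 608, 2348 and 2259 CPM in knockout hearts, against 1527, 730 and 1203 CPM in floxed hearts. The 8 macrophage markers summed to 2179, 6045 and 5920 CPM in knockout hearts, against 6861, 3474 and 6495 CPM in floxed hearts, and so were not higher in knockout libraries 2 and 3 than in floxed libraries 1 and 3. The 4 dendritic cell markers summed to 65.9, 73.8 and 53.9 CPM in knockout hearts, against 39.0, 38.3 and 30.5 CPM in floxed hearts. Zbtb46 was the largest part of that sum in every library. It measured 42.8, 33.1 and 22.9 CPM in knockout hearts, against 26.1, 26.2 and 19.4 CPM in floxed hearts, with overlap. Flt3 overlapped too, whereas Clec9a and Xcr1 did not. Xcr1 in knockout library 1 (2.47 CPM) was only narrowly above floxed library 1 (2.29 CPM). Across the knockout libraries Zbtb46 fell from library 1 to library 3, as the summed endothelial markers given below did. The dendritic cell sum may thus hold RNA of other cells, which was not tested. The 4 B cell markers summed to between 3.49 and 11.4 CPM in knockout hearts and between 5.82 and 11.3 CPM in floxed hearts. The part of these cells in the levels of Psmb8, Psmb9 and Psmb10 was not tested, and in bulk tissue more cells of a type and more RNA per cell cannot be told apart.

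Other cell types varied between the libraries as well. The 8 cardiomyocyte markers summed to 19312, 19514 and 9800 CPM in knockout hearts, against 16008, 22594 and 20544 CPM in floxed hearts, so the defining markers of the labelled tissue were present. The 4 fibroblast markers summed to 1720, 1944 and 3837 CPM in knockout hearts, against 3598, 2012 and 2794 CPM in floxed hearts. The 4 endothelial markers summed to 1285, 979 and 454 CPM in knockout hearts, against 712, 842 and 598 CPM in floxed hearts. Genes of dividing cells (4) summed to 28.6, 204 and 213 CPM in knockout hearts, against 46.6, 23.6 and 41.8 CPM in floxed hearts. Tnnt3, a fast skeletal muscle troponin and one of 4 skeletal muscle markers, was the other gene called besides Gsdmd. It fell by 3.44 ± 0.25 on the log2 scale (SE, edgeR adjusted p = 0.0192). Acta1, of the same list, fell by 0.79 ± 0.27 (log2, SE, edgeR adjusted p = 0.631). Myh1 had 0, 2 and 1 counts in knockout hearts, against 1, 63 and 22 in floxed hearts. Myh4 had 3, 0 and 0 counts in knockout hearts, against 0, 3 and 0 in floxed hearts. Myh1 and Myh4 had too few counts to be tested. The part of any of these in the proteasome levels was not tested.

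The activators of the core had positive log2 fold changes in 5 of 5 genes (median 0.46), and none passed the test. Over all tested genes 46.2% were negative. Psme1 and Psme2, the PA28 alpha and beta subunits, followed the library pattern of the inducible catalytic subunits. Psme1 measured 146.7, 365.9 and 295.8 CPM in knockout hearts, against 179.6, 183.6 and 224.0 CPM in floxed hearts (log2 fold change 0.46 ± 0.34, SE, and 0.74 without knockout library 1). Psme2 measured 102.7, 252.6 and 220.4 CPM in knockout hearts, against 118.0, 95.3 and 128.3 CPM in floxed hearts (log2 fold change 0.75 ± 0.34, SE). In both genes knockout libraries 2 and 3 were above, and library 1 was within or below, the floxed values. Psme2b, a retrogene copy close in sequence to Psme2, measured 27.1, 81.4 and 67.0 CPM in knockout hearts, against 35.9, 39.4 and 40.9 CPM in floxed hearts. Its level is uncertain, since reads could be shared with Psme2, and its row also lies within Gm12185 on the same strand. Psme3, which encodes the nuclear activator PA28 gamma, measured 46.5, 63.3 and 75.2 CPM in knockout hearts, against 64.5, 56.1 and 58.2 CPM in floxed hearts. Psme4, which encodes PA200, measured 181.0, 108.3 and 213.6 CPM in knockout hearts, against 143.4, 182.7 and 168.5 CPM in floxed hearts. Both sets of libraries overlapped, and the log2 fold changes were 0.05 ± 0.21 for Psme3 and 0.02 ± 0.28 for Psme4 (SE).

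Without knockout library 1, 3 members passed the edgeR test, while 2.92% of the 17125 genes then tested did (500 genes), 2.41% on the higher side. Psmb9 rose by 1.297 ± 0.21 (log2, SE, edgeR adjusted p = 0.0252), Psme2 by 1.04 ± 0.20 (adjusted p = 0.0407) and Psme2b by 0.92 ± 0.16 (adjusted p = 0.0302). Psmb8 then had a log2 fold change of 1.31 ± 0.27 and did not pass (edgeR adjusted p = 0.0540), and Psmb10 had 0.81 ± 0.30 (adjusted p = 0.204). The call of these 3 genes thus depended on 1 library, and in no fit with all 6 libraries was a member called.

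**Figure D4:**
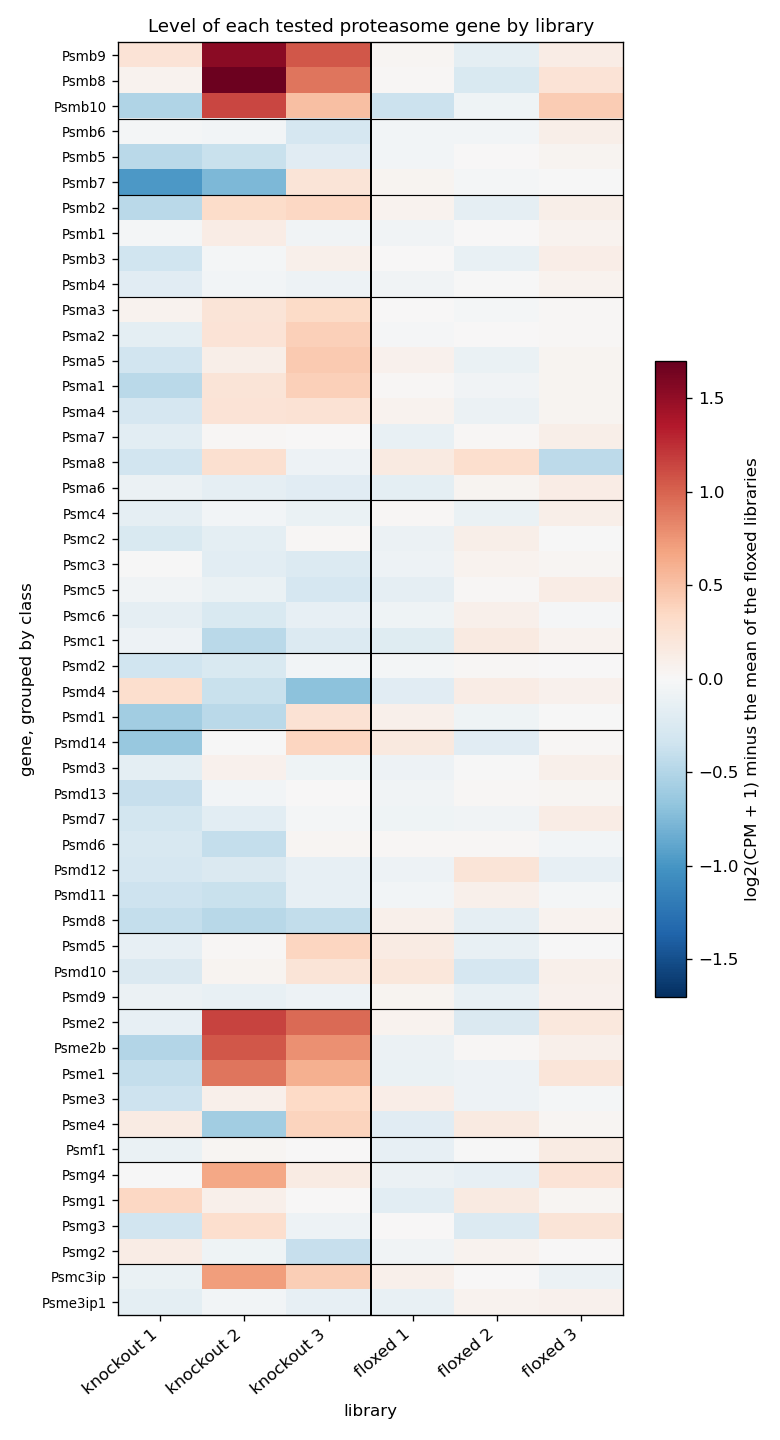
Level of each of the 50 tested proteasome genes (rows, grouped by class) in each library (columns, knockout left of the line, floxed right), as log2(CPM + 1) relative to the floxed mean of the gene; red is above and blue below that mean. The deepest reds are Psmb8, Psmb9, Psme2 and Psmb10 in knockout library 2, and knockout library 1 is the lowest library for 27 rows.

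The remainder of the 20S core gave small differences between the group means, with a wide spread among knockout libraries for some subunits. The 8 alpha subunits had 5 positive and 3 negative log2 fold changes (median 0.09), and the 4 beta subunits without a catalytic site 2 of each (median -0.04). Psma3, an alpha ring subunit, measured 85.1, 95.2 and 102.4 CPM in knockout hearts, against 81.8, 79.8 and 82.5 CPM in floxed hearts. All its knockout libraries were higher, with a log2 fold change of 0.21 ± 0.15 (SE, edgeR adjusted p = 0.871). Psma6, also of the alpha ring, measured 120.4, 116.8 and 113.6 CPM in knockout hearts, against 115.8, 133.2 and 140.9 CPM in floxed hearts, with overlap. Psma8, the testis form of an alpha subunit, had 5, 19 and 11 counts in knockout hearts, against 16, 17 and 4 counts in floxed hearts. Psmb3 and Psmb4, structural beta subunits, had log2 fold changes of -0.09 ± 0.19 and -0.11 ± 0.17 (SE), with 110.4, 137.5 and 149.4 CPM of Psmb3 in knockout hearts, against 141.1, 129.1 and 151.9 CPM in floxed hearts. Psmb4 measured 198.2, 219.8 and 214.0 CPM in knockout hearts, against 217.4, 225.9 and 236.9 CPM in floxed hearts, and for both genes the groups overlapped. The other alpha subunits, Psma1, Psma2, Psma4, Psma5 and Psma7, had log2 fold changes between -0.05 and 0.18, Psmb1 and Psmb2 had 0.02 and 0.11, and the groups overlapped for each. The spread was wide in Psma1, at 76.8, 124.1 and 140.9 CPM in knockout hearts, against 107.4, 101.5 and 110.3 CPM in floxed hearts. Psma5 measured 57.0, 76.9 and 98.3 CPM in knockout hearts, against 75.7, 66.1 and 74.0 CPM in floxed hearts. Psmb2 measured 68.1, 117.3 and 120.6 CPM in knockout hearts, against 98.0, 84.7 and 101.0 CPM in floxed hearts. In all 3 genes, which were chosen after their values were seen, knockout library 1 was below, and library 3 above, every floxed library.

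Although the subunits of the core are assembled in equal numbers, their transcripts were not equally abundant. On the deposited FPKM, the 14 standard core subunits covered a 6.88-fold range in knockout hearts (Psmb7 at 17.8 to Psmb5 at 122) and a 7.34-fold range in floxed hearts (Psma3 at 20.8 to Psmb5 at 153). With principal transcript lengths the lowest was Psma3 at 33.5 in knockout and 28.5 in floxed hearts, and the highest Psmb6 at 227 in knockout and 245 in floxed hearts. The identity of the most abundant subunit therefore depended on the length. On the principal lengths the catalytic genes of floxed hearts ran, from high to low, Psmb6 (245 ± 16.8), Psmb10 (206 ± 58.9), Psmb5 (153 ± 5.37), Psmb8 (124 ± 23.2), Psmb9 (80.6 ± 10.3) and Psmb7 (67.7 ± 4.30, SD, n = 3). The SDs of Psmb6 and Psmb10 overlapped, as did those of Psmb10 and Psmb5, narrowly those of Psmb10 and Psmb8, and those of Psmb9 and Psmb7.

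**Figure D5:**
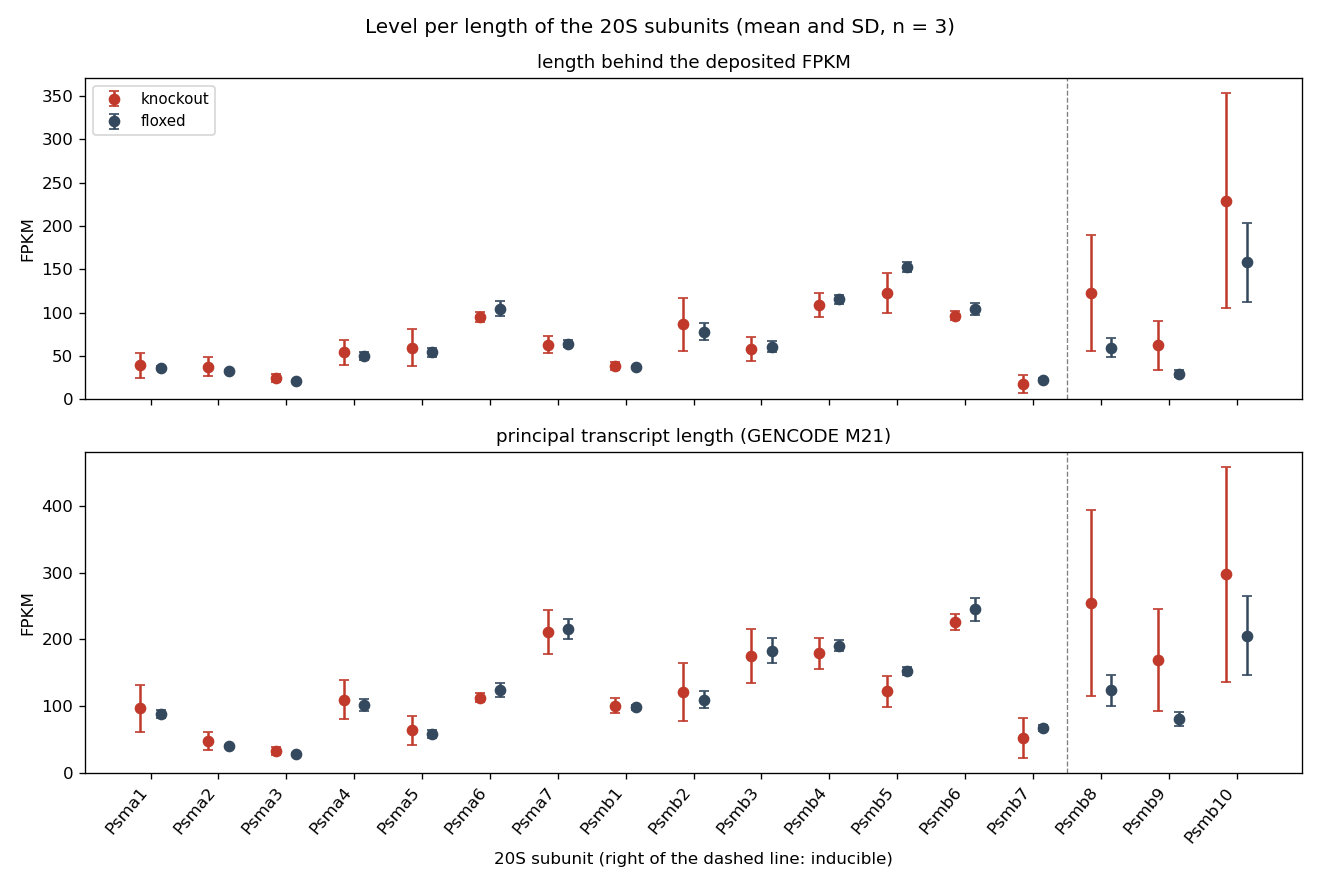
Level per length (FPKM, mean and SD, n = 3) of the 20S subunits in knockout (red, left of each pair) and floxed (blue) hearts, with the length behind the deposited FPKM above and the GENCODE M21 principal transcript length below; inducible subunits are right of the dashed line. Levels differ 6.88-fold in knockout and 7.34-fold in floxed hearts among the standard subunits in the upper panel, and the SDs of Psmb8, Psmb9 and Psmb10 are wider in knockout than in floxed hearts.

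All 17 members that are 19S cap subunits had negative log2 fold changes, against 46.2% of all tested genes, and none passed the test. They are 6 ATPases of the base (median -0.15), 3 other base subunits (median -0.21) and 8 lid subunits (median -0.19). Psmd8, the lid subunit Rpn12, measured 198.2, 187.9 and 195.7 CPM in knockout hearts, against 277.5, 236.4 and 273.9 CPM in floxed hearts. The groups did not overlap, knockout library 1 lay with the others of its group, and the difference was -0.44 ± 0.18 (log2, SE, 95% interval -0.85 to -0.02, edgeR adjusted p = 0.684). Psmd11, the lid subunit Rpn6, measured 72.8, 71.2 and 83.9 CPM in knockout hearts, against 89.5, 98.2 and 90.9 CPM in floxed hearts, again with no overlap (log2 fold change -0.29 ± 0.15, SE). Psmc6, an ATPase, measured 91.9, 85.2 and 92.6 CPM in knockout hearts, against 97.3, 109.3 and 101.3 CPM in floxed hearts (log2 fold change -0.19 ± 0.15, SE), and all knockout libraries were lower. Psmc1, another ATPase, measured 188.3, 144.9 and 169.0 CPM in knockout hearts, against 172.5, 221.2 and 208.4 CPM in floxed hearts. For that gene the groups overlapped, as they did for the remaining ATPases Psmc2, Psmc3, Psmc4 and Psmc5 (log2 fold changes -0.16 to -0.11). Psmd12, the lid subunit Rpn5, measured 69.5, 71.3 and 76.7 CPM in knockout hearts, against 79.7, 98.9 and 76.8 CPM in floxed hearts, which parted the groups by a small margin. The other lid subunits, Psmd3, Psmd6, Psmd7, Psmd13 and the deubiquitinase Psmd14, had log2 fold changes between -0.20 and -0.04, with overlap.

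Psmd2, like Psmd1 a scaffold of the base, measured 186.2, 196.8 and 227.3 CPM in knockout hearts, against 229.0, 238.8 and 236.5 CPM in floxed hearts, with no overlap (log2 fold change -0.21 ± 0.18, SE). Psmd1 measured 43.7, 48.1 and 79.3 CPM in knockout hearts, against 70.7, 63.2 and 66.1 CPM in floxed hearts. Psmd4, a ubiquitin receptor of the cap, measured 263.9, 166.4 and 133.1 CPM in knockout hearts, against 189.6, 235.9 and 228.3 CPM in floxed hearts. Knockout library 1 was the highest of all libraries for Psmd4. It was the lowest of the 6 libraries for 27 of the 50 members and the highest for 3, against 25.9% and 26.7% of all tested genes.

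Assembly factors and the inhibitor gave small differences of both signs. Among the chaperones of the 19S base, Psmd5 measured 26.2, 29.5 and 37.6 CPM in knockout hearts, against 32.1, 26.4 and 28.8 CPM in floxed hearts. Psmd9 measured 21.6, 21.1 and 21.8 CPM in knockout hearts, against 23.9, 21.1 and 24.4 CPM in floxed hearts. For both the groups overlapped. Psmf1, the inhibitor PI31, measured 33.0, 36.5 and 36.0 CPM in knockout hearts, against 32.4, 35.8 and 39.6 CPM in floxed hearts. Of the 20S chaperones, Psmg4 measured 24.7, 39.7 and 27.4 CPM in knockout hearts, against 23.1, 22.5 and 29.4 CPM in floxed hearts (log2 fold change 0.29 ± 0.23, SE). Psmg1 measured 20.2, 16.8 and 15.8 CPM in knockout hearts, against 13.7, 17.5 and 16.0 CPM in floxed hearts. In each of these genes the groups overlapped, as in Psmd10, Psmg2 and Psmg3 (log2 fold changes 0.01, -0.10 and -0.04). Psmc3ip, a meiotic recombination factor, and Psme3ip1, which binds PA28 gamma, fit the rule by name and are in none of the classes. Their log2 fold changes were 0.51 ± 0.36 and -0.12 ± 0.14 (SE).

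The 51 rows held 0.461%, 0.676% and 0.687% of counts in knockout libraries, against 0.566%, 0.545% and 0.611% in floxed libraries. The ranges overlapped.

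Genes of the interferon gamma response and class I presentation were set beside them (23 tested). The edgeR test called 0 of them. A positive log2 fold change was found for 21 and a negative one for 2 (against 46.2% negative over all tested genes), with a median of 0.51. An unadjusted edgeR p under 0.05 was found for 2, a share close to the 7.02% of all tested genes. Irf1, a transcription factor of this response, measured 96.1, 283.7 and 225.5 CPM in knockout hearts, against 116.3, 84.3 and 101.3 CPM in floxed hearts (log2 fold change 1.00 ± 0.39, SE, edgeR adjusted p = 0.665). Without knockout library 1, Irf1 rose by 1.32 (log2, edgeR adjusted p = 0.0243), and over the libraries left out in turn its log2 fold change ranged from 0.67 to 1.32, passing in no other case. Tap2, the partner of Tap1 in the peptide transporter, measured 121.2, 287.2 and 192.5 CPM in knockout hearts, against 115.6, 114.5 and 117.6 CPM in floxed hearts, and the groups did not overlap (log2 fold change 0.79 ± 0.31, SE, edgeR adjusted p = 0.680, and 1.03 with 0.0503 without knockout library 1). Ifng, the cytokine itself, measured 2.35, 11.6 and 11.1 CPM in knockout hearts, against 4.26, 0.42 and 0.98 CPM in floxed hearts (log2 fold change 2.14 ± 0.91, SE, edgeR adjusted p = 0.715). That value was 2.55 without knockout library 1 and 3.55 without floxed library 1, the highest of those with 1 library left out, and 1.67 at the lowest. Knockout library 1 was within the floxed range for Irf1 and Ifng. Over the 23 genes, every knockout library lay above every floxed library in 1 (Tap2), against 5.82% of all tested genes. The reverse held in 0, against 5.98%.

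Other genes of the proteasome pathway (29 tested: transcription factors, ubiquitin genes, receptors and shuttles) showed 10 positive and 19 negative log2 fold changes (median -0.07). Over all tested genes 46.2% were negative. The edgeR test called 0 of them, and 2 had an unadjusted p under 0.05, again close to 7.02%. Nfe2l1, the transcription factor that raises proteasome subunit genes when the complex is inhibited, measured 265.3, 275.7 and 238.8 CPM in knockout hearts, against 322.2, 366.6 and 367.3 CPM in floxed hearts. All knockout libraries were lower, with a log2 fold change of -0.44 ± 0.18 (SE, edgeR adjusted p = 0.709). Zfand2a, a proteasome-binding protein induced by stress, measured 27.0, 26.9 and 32.9 CPM in knockout hearts, against 42.4, 34.7 and 38.8 CPM in floxed hearts (log2 fold change -0.42 ± 0.17, SE, edgeR adjusted p = 0.680). Adrm1, a ubiquitin receptor of the 19S cap, measured 112.4, 100.8 and 100.8 CPM in knockout hearts, against 115.6, 136.1 and 125.0 CPM in floxed hearts. For both genes the groups did not overlap. Over the list, every knockout library lay below every floxed library in 4 of 29 genes, against 5.98% of all tested genes. The reverse held in 0, against 5.82%. The named genes were those with the smallest p in the list.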

How the data were processed

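Stranded mRNA libraries were prepared from heart RNA, per the labels' protocols. Tools named in the submitters' processing notes, with mm10 as build and no role given, are GATK 4.0.11.0, DESeq2 1.22.1, featureCounts 1.6.2, Cufflinks, StringTie 1.3.4d, HISAT2 2.1.0 and fastp 0.19.3. The authors deposited unnormalised counts (35618 genes) and FPKM (35606 of them). The sources used here give neither the build of the table's positions (0 of 51 members start within 1 kb of their RefSeq GRCm38 start) nor the assignment of reads by strand or to several genes. Of the members, 21 overlap another row, and for 8 that row has over 10% of their counts.

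Counts were tested with edgeR 4.0.16 in R 4.3.3 (filterByExpr with a minimum count of 10, TMM, quasi-likelihood F test with robust estimation, genotype as the only term), with Benjamini-Hochberg adjustment over 16591 genes and a threshold of 0.05. DESeq2 1.42.0 and limma 3.58.1 were alternatives, as were other filters, scalings and pseudocounts and leaving out each library. Principal transcript lengths (GENCODE M21) were added as an alternative after seeing the data. The fits were tested on simulated data. Promoter windows came from RefSeq. The members, classes, gene lists and rules were chosen with earlier results of these data known. All members could be named. Values per library are given for the catalytic subunits, Psma8, the activators, the 2 members with the smallest p in each other class and up to 3 in each other list. Psma1, Psma5, Psmb2, Psmd4, Psmd12, Cd4, Ncr1, Zbtb46, Myh1 and Myh4 fall outside this rule, and they were chosen after their values were seen. Nothing in the labels says that the libraries of a group come from separate animals, so p-values reflect only library-to-library spread, which may be technical.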

Additional observations from a re-analysis of the deposited data

How the results depend on the processing

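Among all tested genes, 2 were called. Without a filter on low counts 10 were, with DESeq2 243, with limma-voom 1 and with the replicate block 0, and leaving out each library gave 0 to 500. The deviations of same-numbered libraries from their group means correlated at r = -0.64, -0.38 and 0.09. With 3 libraries a group this cannot exclude a pairing by replicate number. The block called 0 members too. The count of members called was 0 under every alternative with all libraries, and 0 to 3 with 1 library left out, 3 without knockout library 1. The median log2 fold change of members ranged from -0.12 to -0.01 with 1 library left out, and the log2 difference of the summed inducible to constitutive ratio from 0.47 to 1.24. The small positive log2 fold change of Psme4 turned negative with limma-voom (-0.0261), on log2(FPKM + 1) (-0.0104, the same value with a mean FPKM of at least 1), on log2(FPKM + 0.1) (-0.0138) and with the block (-0.0213). With 1 library left out, the sign turned for Psme4 (-0.19 to 0.26), Psma8 (-0.65 to 0.24), Psmb3 (-0.18 to 0.00945), Psme3 (-0.12 to 0.20), Psmd5 (-0.0650 to 0.19) and Psmf1 (-0.10 to 0.0254). The cause was not tested. Psmb8 ranged from 0.53 to 1.31, Psmb9 from 0.70 to 1.297 and Psmb10 from 0.05 to 0.81, each lowest without knockout library 2 and highest without knockout library 1. Psmb7 ranged from -0.88 to -0.21, Psmd1 from -0.54 to -0.08 and Psme1 from 0.17 to 0.74. Psme2 ranged from 0.50 to 1.04 and Tap2 from 0.43 to 1.03. With 3 libraries a group and a biological coefficient of variation of 33.3%, the intervals of single genes are wide, and a p that misses the threshold does not show equal levels.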
